A study of Mus musculus with 2 samples.

Results

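The sarcomere and muscle contraction genes are a set of 51 mouse genes chosen by name from the skeletal, cardiac and developmental proteins of the contractile apparatus. All 51 had a row in the gene tables, among 43346 mouse gene IDs and 21474 protein-coding genes. They were measured by total RNA sequencing of the embryonic facial prominence of strain B6NCrl mice at 12.5 days, in 1 group of 2 libraries. Replicate 1 was made from the pooled tissue of 120 embryos and replicate 2 from that of 88, males and females mixed, with 10 ng of RNA for each library and ERCC spike-in RNAs added. The libraries had summed expected counts of 27890681 and 39969716, where an expected count is an estimated number of reads. With 1 group and no contrast, levels are described for each library and no p-value is given, and SDs are over n = 2. The series has been superseded by a later deposit, per its title, so these are older tables.

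Striated muscle contracts when thick filaments of myosin pull on thin filaments of actin within the sarcomere, whose ends are anchored at Z discs and whose middle is held by the M band. Calcium released from the sarcoplasmic reticulum binds troponin on the thin filament and lets myosin engage. Most of these proteins come from small gene families with embryonic, slow, fast and cardiac members, which replace each other as a muscle fibre matures. In the face of the embryo, the muscles of chewing, expression, the eye and the tongue arise from head mesoderm and occipital somites and differentiate within a mesenchyme derived from neural crest.

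Transcripts for all parts of the sarcomere were present. Of the 51 members, 37 reached 1 TPM (a transcript level per length, scaled to the same total in each library) in both libraries, or 72.5%, against 61.8% of all protein-coding genes. A mean of 10 TPM was reached by 16 members, or 31.4%, against 42.4% of all protein-coding genes. A mean from 1 to under 5 TPM was found for 18 members and one under 1 TPM for 9. None had under 3 expected counts in both libraries, the limit used here for detection. The median member had a mean of 4.73 TPM, beside 5.23 TPM for all protein-coding genes. Summed over the members the level was 800.3 TPM in replicate 1 and 1004 TPM in replicate 2, which is 0.0800% and 0.1004% of all TPM. Actc1, Tnnt1 and Myl1 made up 40.9% of that sum, and the 10 highest members 74.6%. The members held nearly the same order in both libraries, with a Spearman coefficient of 0.99 across the 51 genes, which are not independent of each other. In bulk tissue, fewer muscle cells and less RNA per muscle cell cannot be told apart.

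**Figure D1:**
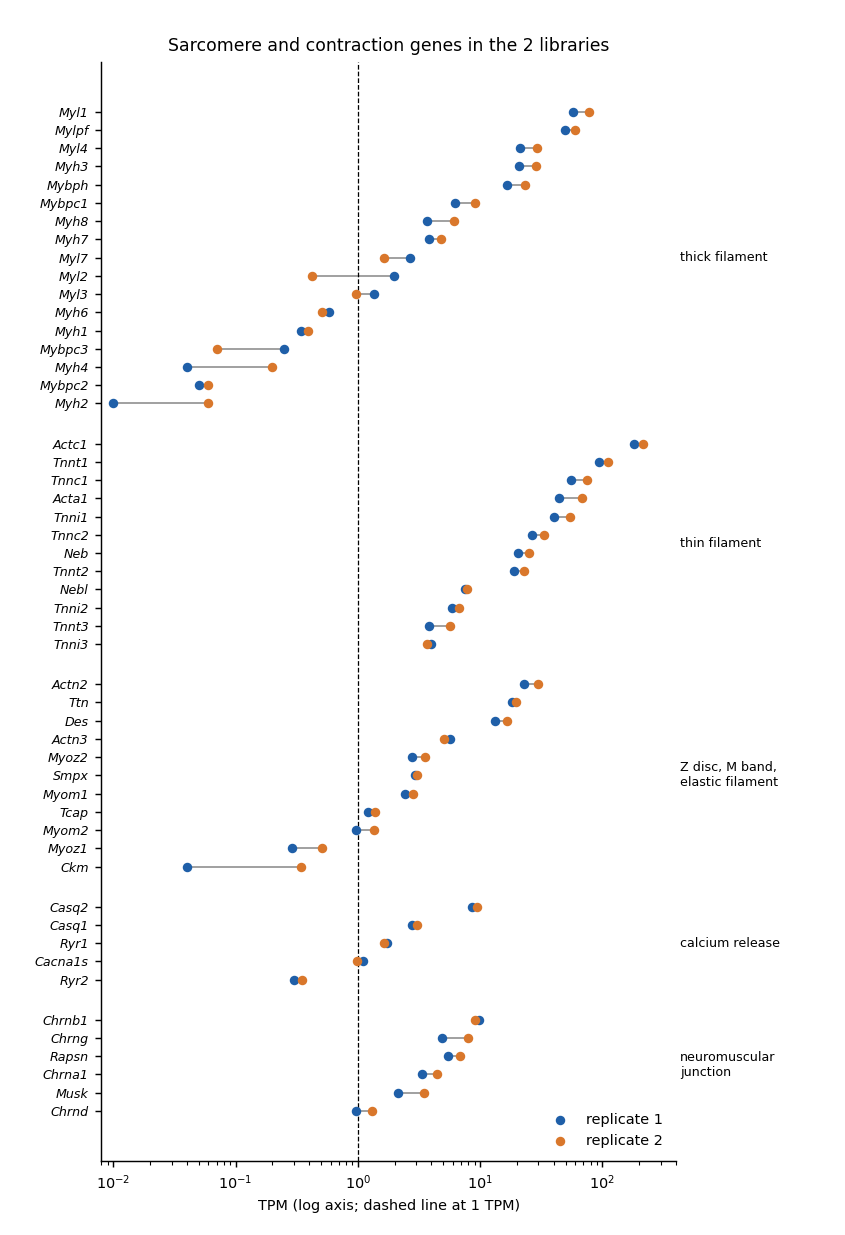
TPM of the 51 members (log axis) in replicate 1 and replicate 2, in 5 groups by role. Points joined by a line are 1 gene, and the dashed line marks 1 TPM. The thin filament group lies wholly above that line, and the thick filament group spans the widest range.

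Thin filament genes held most of the members' transcripts. All 12 reached 1 TPM in both libraries, their median was 26.3 TPM, and together they stood at 501 and 629 TPM, or 62.6% of the summed member level. The highest was Actc1, cardiac alpha-actin, which is also the main sarcomeric actin of embryonic skeletal muscle (ENSMUSG00000068614, chr2:114047282-114053548, GRCm38, minus strand). It stood at 181 TPM in replicate 1 and 215 TPM in replicate 2. Acta1, the alpha-actin that dominates mature skeletal muscle (ENSMUSG00000031972, chr8:123891769-123894751, minus strand), stood at 44.0 and 68.0 TPM. Actc1 was therefore above Acta1 in both libraries, by a mean of 3.60-fold (log2 ratio 1.85 ± 0.27), and the ratio was smaller in replicate 2.

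Both actin promoters hold a CArG box, the element bound by serum response factor, and their RefSeq windows (GRCm38.p6, 250 bases before the start to 50 after it) are shown with that of Myh3, an abundant member whose window has none. The windows are chr2:114052826-114053125 on the minus strand for Actc1, chr8:123894726-123895025 on the minus strand for Acta1 and chr11:67078050-67078349 on the plus strand for Myh3. Capitals mark the CArG box.
Actc1: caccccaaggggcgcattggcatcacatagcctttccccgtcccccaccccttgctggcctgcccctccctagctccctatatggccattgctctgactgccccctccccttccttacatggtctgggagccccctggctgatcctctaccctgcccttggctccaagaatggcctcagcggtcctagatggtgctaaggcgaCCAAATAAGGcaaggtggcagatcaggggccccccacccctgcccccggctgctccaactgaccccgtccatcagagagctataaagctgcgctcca
Acta1: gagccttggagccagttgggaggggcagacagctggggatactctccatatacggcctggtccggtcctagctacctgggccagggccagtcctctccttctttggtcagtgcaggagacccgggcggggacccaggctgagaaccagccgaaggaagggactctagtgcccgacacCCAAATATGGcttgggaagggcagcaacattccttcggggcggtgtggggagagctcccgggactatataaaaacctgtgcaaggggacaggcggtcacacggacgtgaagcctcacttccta
Myh3: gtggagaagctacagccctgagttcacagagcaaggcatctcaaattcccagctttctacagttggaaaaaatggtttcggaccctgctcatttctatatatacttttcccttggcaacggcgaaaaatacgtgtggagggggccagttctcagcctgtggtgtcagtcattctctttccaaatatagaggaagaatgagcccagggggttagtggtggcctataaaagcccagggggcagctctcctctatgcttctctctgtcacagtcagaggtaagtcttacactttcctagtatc
The box begins 47 bases before the annotated start in Actc1 and 73 bases before it in Acta1. In the Actc1 window the TATAAA letters lie after the annotated start, so distances there depend on which start is taken. RefSeq windows were matched for 42 of the 51 members, 49 windows in all. A CArG box was found in 7 of the 49, or 14.3%, against 1.63% of 32851 windows of all genes. They belong to Acta1, Actc1, Myh4, Myl3, Myl7, Myom1 and Nebl, so the box is found in members at both ends of the range of levels. A MEF2 site was also in 14.3% of member windows, against 3.19% of all. The E-box CANNTG, bound by MyoD family factors, was in 87.8% against 72.3%, and TATAAA in 26.5% against 13.6%. Both strands were searched, and a match is only a description of the letters.

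Among the troponins, which carry the calcium switch, the slow or cardiac paralog was the higher one in each of the 3 subunits. For troponin T, the subunit that binds tropomyosin, slow Tnnt1 stood at 94.0 and 112 TPM, cardiac Tnnt2 at 19.1 and 22.8 TPM, and fast Tnnt3 at 3.80 and 5.67 TPM. Tnnt1 was 22.1-fold above Tnnt3 (log2 ratio 4.46 ± 0.23) and 4.91-fold above Tnnt2 (2.29 ± 0.01). The TPM of Tnnt3 lay below its own deposited interval in both libraries, and with posterior mean TPM Tnnt1 was 15.8-fold above it (3.98). For the calcium-binding subunit, slow and cardiac Tnnc1 stood at 55.6 and 74.8 TPM and fast Tnnc2 at 26.4 and 33.5 TPM. This ratio, 2.17-fold (1.12 ± 0.06), was the closest to even of the troponin pairs. Exons of Tnnc2 overlap those of Ube2c, a cell cycle gene on the opposite strand, and without known strand their reads cannot be told apart. For the inhibitory subunit, slow Tnni1 stood at 40.3 and 54.9 TPM, fast Tnni2 at 5.88 and 6.69 TPM, and cardiac Tnni3 at 3.96 and 3.66 TPM. Tnni1 was 7.50-fold above Tnni2 (2.91 ± 0.18) and 12.4-fold above Tnni3 (3.63 ± 0.39). Exons of Tnni3 overlap those of Dnaaf3 on the same strand, which leaves its level uncertain.

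Of the other thin filament genes, Neb encodes nebulin, the giant protein that runs along the skeletal thin filament (ENSMUSG00000026950, chr2:52136647-52378474, minus strand). It stood at 20.4 and 24.9 TPM. Nebl, whose gene makes the cardiac relative nebulette and a shorter LIM-domain protein, stood at 7.49 and 7.75 TPM, so that Neb was 2.95-fold higher (1.56 ± 0.17) at the level of the gene. That direction rests on a short noncoding transcript of Neb. Over coding transcripts alone, Neb stood at 3.10 and 4.49 TPM and Nebl at 3.80 and 4.35 TPM, a log2 ratio of -0.12 ± 0.24 whose sign differed between the libraries.

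Thick filament genes covered the widest range, from 0.0350 to 67.8 mean TPM. Of 17 members, 9 reached 1 TPM in both libraries, their median was 2.16 TPM, and their sum of 187 and 242 TPM made up 23.8% of the member level. The heavy chains, the motor subunits, were dominated by Myh3, embryonic myosin (ENSMUSG00000020908, chr11:67078300-67102291, plus strand), at 20.9 and 28.6 TPM. The perinatal chain Myh8 stood at 3.66 and 6.13 TPM and the slow and cardiac chain Myh7 at 3.79 and 4.77 TPM. Myh3 was 5.15-fold above Myh8 (log2 ratio 2.37 ± 0.20) and 5.74-fold above Myh7 (2.52 ± 0.09), and the order of Myh8 and Myh7 differed between the libraries.

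The adult fast heavy chains were all under 1 TPM. Myh1 stood at 0.340 and 0.390 TPM, Myh4 at 0.0400 and 0.200 TPM and Myh2 at 0.0100 and 0.0600 TPM. Myh3 and Myh8 together were 57.9-fold above the sum of these chains (5.86 ± 0.17). The fast and developmental chains lie side by side on chromosome 11 and are alike in sequence, and fractional counts for Myh2, of 1.09 and 8.15, show reads that were divided between genes. Myh6, the alpha chain of the atria, stood at 0.580 and 0.510 TPM, and Myh7 was 7.82-fold above it (2.97 ± 0.37), or 3.82-fold with posterior mean TPM (1.93). The TPM of Myh6 lay below its own deposited interval in both libraries, 0.720 to 2.14 and 0.602 to 1.62 TPM.

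The myosin light chains were the most abundant part of the thick filament. Myl1, which encodes the fast alkali light chains, stood at 57.9 and 77.7 TPM, and Mylpf, the fast regulatory light chain, at 49.6 and 59.3 TPM. Myl4, the embryonic and atrial alkali chain, stood at 21.3 and 29.4 TPM, 2.68-fold below Myl1 (log2 ratio -1.42 ± 0.03). The troponins thus had slow members highest, while the most abundant light chains were those named for fast muscle.

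Apart from Myl4, the light chains named for heart muscle were at 2.68 TPM or less. Myl7, the atrial regulatory chain, stood at 2.68 and 1.64 TPM, Myl2, the ventricular and slow regulatory chain, at 1.97 and 0.420 TPM, and Myl3, the ventricular and slow alkali chain, at 1.36 and 0.960 TPM. Mylpf was 25.9-fold above Myl7 (4.69 ± 0.68) and 59.6-fold above Myl2 (5.90 ± 1.76). The latter rests on 20 and 5 expected counts of Myl2, with 95% counting intervals of the fold from 16.3 to 41.2 in replicate 1 and from 60.5 to 435 in replicate 2. With posterior mean TPM, 5.00 and 2.10 for Myl2, the ratio was 17.4-fold (4.12). The TPM of Myl2 lay below its own deposited interval in both libraries, so the size of this ratio is uncertain. Myl4 was 21.9-fold above Myl3 (4.45 ± 0.68). Exons of Myl2 and Myl3 overlap Ccdc63 and Pth1r on the opposite strand.

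Myosin-binding proteins, which tie and tune the thick filament, were led by Mybph at 16.5 and 23.3 TPM. Its exons overlap those of Adora1 on the opposite strand. Mybpc1, the slow skeletal myosin-binding protein C, stood at 6.26 and 9.01 TPM. Its fast counterpart Mybpc2 had 3 and 5 expected counts, so Mybpc1 was higher by 125-fold in replicate 1, with a 95% counting interval from 42.8 to 607, and by 150.2-fold in replicate 2, from 64.3 to 462. Against the cardiac Mybpc3, with 18 and 7 counts, the ratio was 25.0-fold in replicate 1, with an interval from 15.8 to 42.3, and 129-fold in replicate 2, from 62.5 to 320.1. Their mean on the log2 scale was 5.83 ± 1.67, and the intervals of the libraries do not overlap. These intervals are exact Poisson intervals of the lower count and cover counting error only.

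The Z disc, M band and elastic filament held 11 members, of which 8 reached 1 TPM in both libraries, with a median of 3.00 TPM and 8.60% of the member level. Actn2, the alpha-actinin that crosslinks thin filaments in all striated muscle, stood at 23.0 and 29.8 TPM. Actn3, the form of fast fibres, stood at 5.71 and 5.03 TPM, and Actn2 was 4.88-fold above it (2.29 ± 0.39). Ttn encodes titin, the elastic filament from Z disc to M band (ENSMUSG00000051747, chr2:76703980-76982547, minus strand), and stood at 18.1 and 19.7 TPM. Des, the intermediate filament protein that links Z discs, stood at 13.2 and 16.6 TPM.

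The other 7 members of this group had means under 5 TPM. Myoz2 and Myoz1 encode calsarcins, which bind calcineurin at the Z disc, and Myoz2 at 2.78 and 3.53 TPM was 8.15-fold above Myoz1 at 0.290 and 0.510 TPM (3.03 ± 0.33). The M band gene Myom1 stood at 2.43 and 2.82 TPM and Myom2 at 0.970 and 1.35 TPM, a ratio of 2.29-fold (1.19 ± 0.19). That ratio fell under the calling threshold of 1 on the log2 scale with posterior mean TPM, at 0.60, and with 1 TPM added to both genes, at 0.75. Exons of Myom1 overlap those of Myl12a on the opposite strand. Smpx, a small muscle protein, stood at 2.93 and 3.06 TPM, and Tcap, the cap of titin at the Z disc, at 1.21 and 1.38 TPM. Ckm, the muscle creatine kinase that sits at the M band of mature fibres, had 1 expected count in replicate 1 and 11 in replicate 2, or 0.0400 and 0.340 TPM.

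Genes of calcium release were a small part of the members' transcripts. Of 5 members, 3 reached 1 TPM in both libraries, none had a mean of 10 TPM, and they made up 1.67% of the member level. Casq2, the calcium store protein of cardiac and slow muscle, stood at 8.57 and 9.38 TPM, and was 3.11-fold above the fast skeletal Casq1 at 2.75 and 3.02 TPM (1.64 ± 0.003). Ryr1, the skeletal release channel, stood at 1.73 and 1.64 TPM and Ryr2, the cardiac channel, at 0.300 and 0.350 TPM, a ratio of 5.20-fold (2.38 ± 0.21). Cacna1s, the voltage sensor that opens Ryr1, stood at 1.11 and 0.990 TPM. Cacna1c, the calcium channel of cardiac and smooth muscle and neurons and not a member, stood at 9.72 and 8.34 TPM, so that Cacna1s was 8.59-fold below it (-3.10 ± 0.04). Cacna1s had 45 and 109 expected counts, divided by lengths of 2331 and 4458 bases, so the small SD depends on these lengths. For calsequestrin the cardiac and slow paralog was thus the higher in both libraries, and for the ryanodine receptor the skeletal one.

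Of the 6 genes of the neuromuscular junction, where motor axons signal to the fibre, 5 reached 1 TPM in both libraries, and the group made up 3.32% of the member level. The acetylcholine receptor subunits Chrnb1 and Chrng stood at 9.82 and 9.16 TPM and at 4.88 and 7.97 TPM, Chrna1 at 3.34 and 4.44 TPM, and Chrnd at 0.970 and 1.31 TPM. Chrng is the fetal gamma subunit, which the epsilon subunit Chrne replaces after birth. Chrne had 0 expected counts in replicate 1, where Chrng was 28.2-fold above a floor of 3 counts for that library. The 95% upper limit of 0 counts is 3.69, so this floor is not a bound at that level. In replicate 2 Chrne had 1 count, and the ratio was 79.7, with a 95% counting interval from 14.3 to 3148. Rapsn, which clusters the receptor, stood at 5.51 and 6.83 TPM, and Musk, the kinase that organises the synapse, at 2.14 and 3.49 TPM.

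Across these families, 24 ratios of paralogs were taken within each library, each set by name. A ratio was called when its mean log2 value passed 1 or -1 and neither library had the opposite sign. Of the 24, 23 were called, and the other was Chrng over Chrne, where Chrne was under the floor. The pairs were chosen with earlier results of these data known, and the share of other gene pairs past this threshold was not measured. The count alone therefore says nothing particular about these families. It includes Neb over Nebl, whose sign differed between the libraries over coding transcripts. The libraries lay closest together for Casq2 over Casq1 and Tnnt1 over Tnnt2. Casq1 had 52 and 102 expected counts, so the SD of 0.003 over 2 values does not measure the counting error of that ratio. The libraries lay farthest apart for Mylpf over Myl2 and Mybpc1 over Mybpc3, where the lower gene had few counts.

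**Figure D2:**
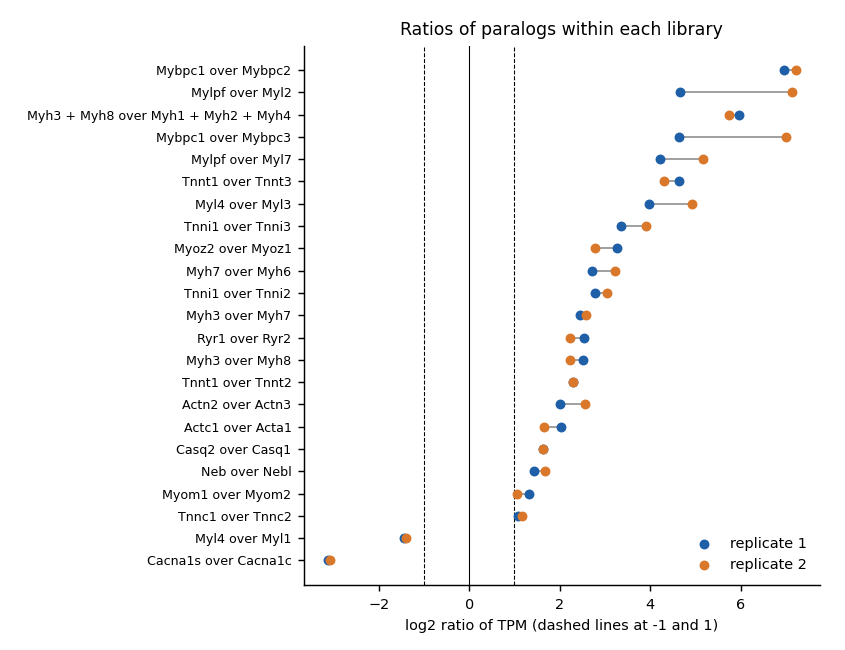
Log2 ratio of TPM for the 23 called pairs of paralogs in replicate 1 and replicate 2, with dashed lines at -1 and 1. Both points of each pair lie on the same side of these lines, and the pairs with Myl2 and Mybpc3 have the widest gaps.

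The transcript tables divide each gene among its annotated transcripts. Among the 24 members with a mean of 5 TPM or more, the most abundant transcript was a coding transcript of the consensus set CCDS for 22, the exceptions being Neb and Ttn. A transcript with 50% or more of the gene in both libraries was found for 19, and with 90% or more for 8, among them Actc1 and Acta1 with 1 transcript each of 377 codons. Estimates for transcripts that share most of their exons are less certain than those for whole genes.

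Myl1 makes 2 proteins from alternative starts. Myl1-202, with 150 codons, held 63.2% and 56.4% of the gene, and Myl1-201, with 188 codons, 31.9% and 40.2%. The short form was thus the higher in both libraries, by a smaller margin in replicate 2. In Tnnt1, 3 coding transcripts of 250, 261 and 262 codons shared the gene, with Tnnt1-206 at 30.8% and 36.8%, Tnnt1-201 at 25.7% and 27.2% and Tnnt1-203 at 22.3% and 21.5%. Tnnt2-207 and Tnnt2-204, of 302 and 301 codons, held 54.7% and 60.9% and 24.3% and 23.4%. Myh3 was divided between Myh3-202, at 79.6% and 75.4%, and Myh3-201, at 17.2% and 24.3%, which both encode 1940 codons. In Myl4 a transcript with a retained intron, Myl4-204, held 26.8% and 29.2%, beside the coding Myl4-202 at 66.6% and 66.1%.

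**Figure D3:**
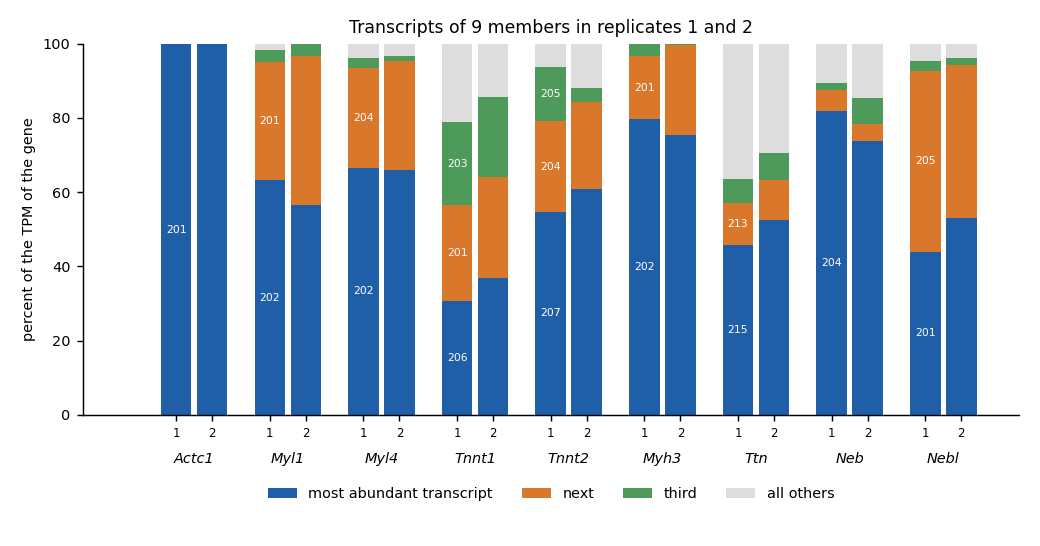
Percent of the TPM of the gene held by each transcript of 9 members, with replicate 1 and replicate 2 side by side. Colours give the rank of a transcript by its mean share, and white numbers are the transcript numbers within the gene. Actc1 is nearly all 1 transcript, whereas Tnnt1 is divided among several.

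For the giant genes, the level per length was set by short transcripts. Ttn-215, a coding transcript of 2159 bases and 12 exons within the first 17.5 kb of the 278.6 kb gene, held 45.7% and 52.6% of the TPM of Ttn but 12.2% and 13.1% of its counts. The 9 Ttn transcripts with over 1000 codons stood at 4.59 and 5.67 TPM, and held 85.8% and 84.8% of the counts. Neb-204, a noncoding transcript of 1000 bases lying 42.7 to 58.8 kb into the 241.8 kb gene, held 81.9% and 73.8% of the TPM and 27.6% and 23.4% of the counts. The 4 Neb transcripts with over 1000 codons stood at 1.93 and 2.50 TPM, with 67.7% and 68.4% of the counts. The gene-level TPM of Ttn and Neb is thus several times that of their long coding transcripts. Whether the short transcripts are molecules of their own or reads of longer ones was not tested. Nebl differed in another way. Nebl-201, of 270 codons, held 44.0% and 53.0% of its TPM and the noncoding Nebl-205 48.7% and 41.2%, while Nebl-202, the only one with over 1000 codons, was listed at 0 in both libraries.

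Counts and levels per length therefore gave the members another order. Actc1 came at rank 1 by both, with 22.0% of the summed member TPM and 18.5% of the summed expected counts. Ttn came at rank 15 by TPM, with 2.11%, and at rank 2 by counts, with 10.4%. Myh3 moved from rank 11 to rank 3, with 9.92% of the counts. By counts the thin filament held 45.1% of the members' reads and the Z disc, M band and elastic filament 21.1%.

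**Figure D4:**
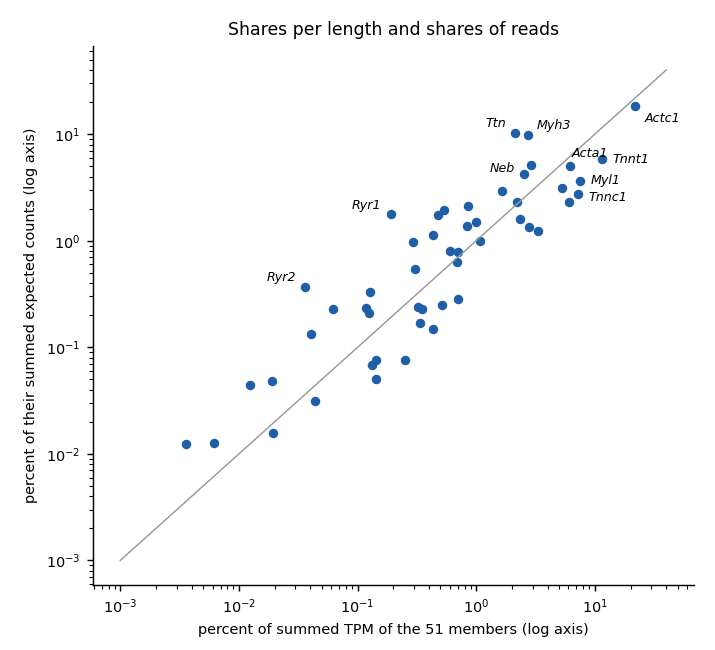
Mean share of each of the 51 members in the summed expected counts (vertical log axis, percent) against its mean share in the summed TPM (horizontal log axis, percent). The grey line marks equal shares. Ttn, Myh3, Ryr1 and Ryr2 lie above it, and Tnnt1, Myl1 and Tnnc1 below.

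Most members were higher in replicate 2, by a small amount. Over the 42 members with a mean of 1 TPM or more, the log2 difference of TPM + 1 (replicate 2 minus replicate 1) had a median of 0.25, beside 0.0039 for 13490 protein-coding genes above the same minimum. Of these members 34 were higher in replicate 2, or 81.0%, against 51.2% of the protein-coding genes. The deposited intervals of TPM, whose level is not given in the sources used here, did not overlap for 17 of 42 members with replicate 2 above (40.5%, against 7.6% of protein-coding genes) and for 0 of 42 with it below (against 4.2%). For Actc1 they ran from 169.8 to 180.4 TPM in replicate 1 and from 205.2 to 214.7 TPM in replicate 2. The TPM of Actc1, 180.5 and 214.8, lay just above its own interval in both libraries. The embryos of a library were pooled, so a difference between 2 pools cannot be told apart from one between 2 library preparations.

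By role, the median difference was 0.42 for the thick filament, 0.30 for the neuromuscular junction, 0.26 for the thin filament, 0.16 for the Z disc group and 0.03 for calcium release. Acta1 (0.62), Myh8 (0.61), Chrng (0.61) and Musk (0.52) differed most in this direction. The deposited intervals of Chrng overlapped, and its main coding transcript, Chrng-201, stood at 3.53 and 4.00 TPM. Counts were divided by lengths of 2133 and 1611 bases for Chrng, and of 3235 and 2622 for Musk. The median for calcium release rests on 4 members. Among them Cacna1s differed by -0.08, with 45 and 109 counts divided by lengths of 2331 and 4458 bases. No member passed 1, against 0.17% of protein-coding genes. Myl2 passed -1, at -1.06, against 0.0815% of them, on 20 and 5 counts. With posterior mean TPM its difference was -0.95. With TMM-scaled counts it was -0.62, where the added 1 weighs more, since the share of all counts itself was 5.73-fold lower in replicate 2. The next lower members were Myl7 at -0.48, Myl3 at -0.27 and Actn3 at -0.15. Within Actn3 the coding Actn3-201 was higher in replicate 2 (3.34 and 3.95 TPM). Its transcript with a retained intron, Actn3-202, was lower (2.37 and 1.08 TPM).

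Markers of other cells differed between the libraries as well. Among the 8 facial mesenchyme markers, Alx1 was higher in replicate 2 by 0.54 on the log2 scale (91.9 and 134 TPM), while Dlx5 (84.4 and 57.1 TPM) and Dlx1 (72.1 and 53.9 TPM) differed by -0.56 and -0.41. Their median difference was -0.05, and their part in the members' differences was not tested. Of 10 cardiomyocyte markers, 3 reached 1 TPM in both libraries. Nppa, the atrial natriuretic peptide, stood at 8.74 TPM in replicate 1 and 0.530 TPM in replicate 2, and Nppb was not detected. The 6 heart markers that are not members summed to 12.1 and 5.63 TPM, or to 3.36 and 5.10 TPM without Nppa. The 4 that are members, Myh6, Myl7, Mybpc3 and Tnni3, summed to 7.47 and 5.88 TPM, each lower in replicate 2 by TPM. Tnni3 had 34 and 59 expected counts in libraries of unlike depth, divided by lengths of 491 and 650 bases. Of all 10 heart markers, 7 were lower in replicate 2 and 3 were higher. The higher ones were Nkx2-5 (2.13 and 2.55 TPM), Tbx5 (0.850 and 1.75) and Tbx20 (0.140 and 0.610). The part of the heart markers in the differences of Myl2, Myl7 and Myl3 was not tested. Without the members on the heart list, 34 of 40 were higher in replicate 2, with a median of 0.26. The 5 skeletal muscle markers Myod1, Myog, Myf5, Mymk and Cdh15 summed to 98.7 and 115 TPM.

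**Figure D5:**
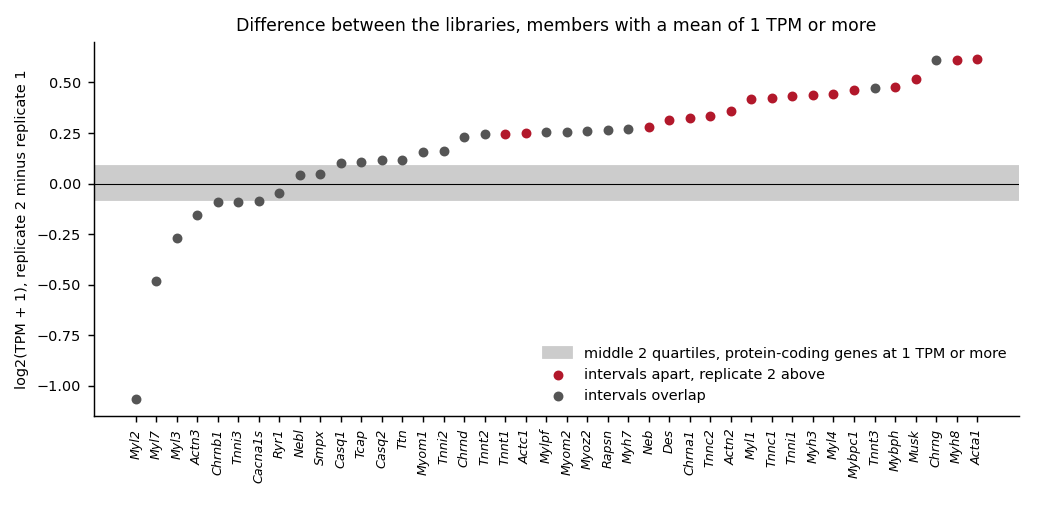
Difference in log2(TPM + 1), replicate 2 minus replicate 1, for the 42 members with a mean of 1 TPM or more. The grey band spans the middle quartiles of 13490 protein-coding genes, and red points are the 17 members whose deposited intervals lie apart. Most members lie above the band, and Myl2 lies lowest.

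Facial mesenchyme markers were abundant, with all 8 at or above 53.9 TPM in each library and a median of 94.5 TPM. The regulators of muscle formation were present too. Of 15 myogenic regulators 14 reached 1 TPM in both libraries, with a median of 17.5 TPM, beside 4.73 TPM for the sarcomere genes. Myog, which drives myoblast differentiation (52.1 and 62.8 TPM), and Pax3 (23.5 and 30.9) were among the 4 highest, and Pax7 (1.16 and 1.11) and Myf6 (0.550 and 0.670) lowest. Pax3 also serves other cells of the face. The median difference of these regulators between the libraries was 0.05, and that of the 7 myoblast fusion genes 0.03. All 7 fusion genes reached 1 TPM, with Jam3 (91.0 and 98.3), Kirrel (21.9 and 21.1), Cdh15 (10.8 and 11.1) and the fusion protein myomaker, Mymk (7.18 and 9.94), highest and Jam2 (7.34 and 6.74) and Itga7 (2.92 and 2.70) lowest.

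Other genes of the contractile apparatus were measured beside the members. Of 28 further sarcomere and chaperone genes, 19 reached 1 TPM in both libraries, with a median of 2.40 TPM. The tropomyosins, which cover the actin filament and are also made by other cells, were highest, with Tpm1 at 558 and 660 TPM, Tpm3 at 428 and 426 TPM and Tpm2 at 125 and 144 TPM, followed by Obsl1 at 85.4 and 82.7 TPM. Mylk2, the skeletal myosin light chain kinase, had 1 and 4 counts and Xirp2 had 1 and 3. Of 14 further genes of excitation and contraction, 11 reached 1 TPM. The calcium pump Atp2a2 (47.0 and 47.1 TPM), its inhibitor Sln (25.0 and 31.7), the fast pump Atp2a1 (19.3 and 22.1) and Cacnb1 (12.2 and 13.6) led. Trdn (0.190 and 0.330) and the adult sodium channel Scn4a (0.0700 and 0.0400) were lowest. In bulk tissue, the cells that made the Obsl1 and Atp2a2 transcripts, muscle or other, cannot be told.

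At the synapse, 4 of 6 further genes reached 1 TPM in both libraries. Agrn, the nerve-derived organiser that other tissues also make, stood at 83.8 and 82.4 TPM, its receptor Lrp4 at 6.52 and 6.78, Ache at 6.78 and 5.86 and Dok7 at 1.95 and 1.68. Colq stood at 0.50 and 0.87 TPM. Of 7 genes of muscle energy metabolism 6 reached 1 TPM, with a median of 3.93 TPM. Eno3 (16.6 and 22.8 TPM), Pgam2 (14.1 and 15.0), Cox6a2 (3.48 and 6.79) and Pygm (2.94 and 4.92) were highest, myoglobin, Mb, stood at 1.08 and 1.46, and Ckmt2 was not detected. Their median difference between the libraries, 0.34, was on the side of the sarcomere genes.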

How the data were processed

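Total RNA of 2 libraries was analysed, each from its own pool of embryos. Gene and transcript tables of each library were used. Per the file headers, the expected count is an estimated read number in which reads matching several genes are divided, and the deposited counts were used unrounded except for TMM factors. The deposited TPM values are scaled by effective length to a common total that includes spike-ins. A deposited posterior mean TPM, FPKM values and isoform percent came with them, per the file headers, as did lower and upper bounds of TPM. The build is mm10 with GENCODE M4, per the submitters' processing notes. The aligner, the quantification tool, the strand of the libraries and the level of the bounds are each not given in the sources used.

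Names, gene types and coordinates (1-based) came from GENCODE M21 on the same build, and 42462 of 43346 mouse IDs matched. Members, role groups, pairs and lists were chosen with earlier results of these data known. Differences between libraries used log2(TPM + 1) with a mean of at least 1 TPM. Named were all members with a mean of 5 TPM or more, all genes of called pairs, members past 1 or -1 between the libraries, and the 4 highest and 2 lowest genes of the other lists, of which a few are not reported here. A count of 3 was the floor. Intervals and floors hold counting error alone, and reads that carry no molecular identifier can be copies of 1 molecule. Exons of 21 members overlap another gene. Scripts used Python 3.11.15, numpy 2.4.6, pandas 2.3.3 and matplotlib 3.10.9, and edgeR 4.0.16 under R 4.3.3 gave TMM factors. The code for differences of log2(TPM + 1) was run on made-up values without noise, which checks the arithmetic alone. TMM scaling was run on simulated counts with Poisson noise only. There the changed genes had high counts and the added count was smaller, so members with few counts were not covered. Ratios and shares were not tested. Alternatives were posterior mean TPM, FPKM, TPM without spike-ins, counts not divided by length, other minimums and pseudocounts, TMM-scaled counts and each library alone.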

Additional observations from a re-analysis of the deposited data

How the results depend on the processing

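Depth limits the members under 1 TPM and the ratios that rest on them, above all those of Myl2, Mybpc2, Mybpc3 and Chrne. The median member level was 2.95 as FPKM, a different scale, and ran from 3.80 to 5.03 TPM in either library alone. With counts not divided by length the group shares were 25.3% (thick filament), 45.1% (thin filament), 21.1% (Z disc, M band and elastic filament), 4.11% (calcium release) and 4.31% (neuromuscular junction). That follows from the lengths of the genes. With posterior mean TPM the thin filament held 61.9% and the neuromuscular junction 3.41%. The count of members past 1 or -1 between the libraries was 0 with TMM-scaled counts and 0 with posterior mean TPM, in place of 1. The member concerned was Myl2, at -0.95 with posterior mean TPM and at -0.62 with TMM-scaled counts, where the added 1 weighs more. The number of members at the minimum was 42 at 0.5 TPM, 34 at 2 TPM and 43 with posterior mean TPM. With TMM-scaled counts 38 of 42 members were higher in replicate 2 (median 0.30), against 53.1% of protein-coding genes. Of 23 ratios, 22 were called under all 5 alternatives applied to each pair, the exception being Myom1 over Myom2. From coding transcripts alone, Neb over Nebl turned to -0.12 on the log2 scale. With counts not divided by length, Tnni1 over Tnni3 was 21.4-fold, Casq2 over Casq1 6.18-fold, Mybpc1 over Mybpc3 37.0-fold, and Cacna1s 15.1-fold below Cacna1c. Adding 1 TPM to both sides brought 9 ratios of low genes closer to even by over 1.5 times. With posterior mean TPM the shares of Nebl-201, Nebl-205, Tnnt2-207, Tnnt2-204 and Ttn-213 were 41.7%, 39.1%, 44.9%, 21.3% and 10.0%. Leaving out the heart markers, comparing the deposited intervals and the coding transcripts of Neb and Nebl were added after the data were seen. No paired analysis was possible because there is 1 group.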

Other observations

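The dystrophin complex ties the contractile apparatus to the membrane and is also made outside muscle. All 8 of its genes that were listed reached 1 TPM in both libraries, with a median of 8.64 TPM. Which of their transcripts, long or short, set these levels was not examined. Dag1 (43.3 and 44.2 TPM), Sgcb (21.3 and 23.9), Dmd (13.1 and 12) and Sgcd (9.08 and 9.63) were highest, and the muscle sarcoglycan Sgca (1.28 and 1.48) lowest.

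Smooth muscle markers were mixed. Of 10, 8 reached 1 TPM in both libraries, led by Myl9 (152 and 150.2 TPM), Acta2 (89.9 and 102), Smtn (42.4 and 46.1) and Tagln (10.9 and 11.9), which other mesenchymal cells also express. Myh11, the smooth muscle myosin, stood at 0.490 and 0.440 TPM and Lmod1 at 0.420 and 0.710 TPM. Acta2, whose early expression in striated muscle is known, was above Acta1 in both libraries and below Actc1.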
